A study of Glycine max with 12 samples.

Results

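A set of 273 soybean (Glycine max) genes had reads in every library labelled V5 and almost none in any library labelled R5. A gene entered the set when it exceeded 1 CPM (the count divided by the library's total and multiplied by 1e6) in all 6 V5 libraries, was at or under 0.1 CPM in all 6 R5 libraries, and averaged under 1000 CPM in the wild-type V5 libraries. Of the 56044 gene IDs in the count tables, 26000 met the V5 bound, 14578 met the R5 bound and 299 met both. The upper bound then removed 26 genes, whose wild-type V5 means ran from 1080 to 94765 CPM. The 273 members are 1.05% of the genes that met the V5 bound, and the other 25727 genes above 1 CPM in all V5 libraries serve as the reference below. The measured levels at the 2 stages chose the members, so the difference between V5 and R5 is a description and carries no test.

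RNA-seq was done on seed collected from 3 to 5 field-grown plants. The wild type was the cultivar Thorne. The Gm20 single mutant and the Gm20/Gm10 double mutant are edited lines, made for the gene model under the seed protein locus cqSeed protein-003 and, in the double mutant, for its paralog as well. Each of the 3 genotypes had 2 libraries at R5 and 2 at V5, and no other treatment or allele is named. Nothing in the labels says that a group's libraries were grown or collected separately. The p-values below therefore speak only of the spread among these samples, and that spread may be technical.

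In soybean, R5 is the growers' name for the stage at which seeds begin to fill, when cells of the embryo switch on genes for storage proteins and oil, and V5 is the name of a leafy stage before flowering. Seed is nevertheless the labelled tissue throughout, so both names are used here only as labels. A seed is a mixture of embryo, endosperm and maternal seed coat, and each of these runs its own sequence of gene programmes, many of them shut off outside a narrow window of development. The locus on chromosome 20 is known for trading seed protein against oil, and its gene belongs to the CCT-domain family.

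No gene names can be attached to the members. The tables give IDs without names or products, and 0 of the 56044 IDs matched a reference table of 59048 soybean genes, so functions are not described, the tissue label could not be checked with marker genes, and none of the 23 gene lists defined by product could be filled. Promoter sequences were not used here. The IDs Glyma.20G085100 and Glyma.10G134400, taken for the edited pair from background knowledge of the locus, had 0 to 6 counts per library at R5. At V5 Glyma.20G085100 had 16 and 17 counts in Thorne, 31 and 21 in the double and 31 and 10 in the single mutant. Glyma.10G134400 had 41 and 28, 25 and 19, and 67 and 34 counts in the same order. Neither gene is a member, and small edits need not change read counts.

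Depth ran from 26966329 to 34626177 counts at R5 and from 20410270 to 21066989 counts at V5. At these depths 1 CPM is 21 or 22 counts in a V5 library, and the R5 bound of 0.1 CPM allows 2 or 3 counts. Limits derived from counts cover counting error only and leave out differences between libraries. The reads carry no molecular identifiers, so copies of a molecule cannot be told from separate molecules. One V5 library stood apart, the single mutant V5 replicate 2. In it 93 members lay more than 4-fold from the mean of the other 5 V5 libraries, against 6 to 20 members in each of the other V5 libraries. The counts and medians that rest on this library are therefore given with and without it.

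At R5 the members were close to the limit of detection, but many were not at 0. In all 6 R5 libraries together 111 members had 0 counts and 162 had at least 1, so "only in V5" holds at the threshold and not as a strict absence. The 273 members summed to 68 to 118 counts per R5 library and to 567 counts over all 6, which is 2.97 CPM of the pooled R5 libraries. Between 53 and 74 members were detected in any single R5 library, and 3 members had reads in all 6. The largest R5 total belonged to Glyma.02G088800, with 13 counts, and its V5 levels were 3.43 and 3.95 CPM in Thorne, 5.74 and 4.50 CPM in the double and 3.66 and 22.5 CPM in the single mutant. A gene with 0 counts among the 190671393 counts of the pooled R5 libraries could still have been present at up to 0.0157 CPM. In bulk tissue, fewer cells of a type and less RNA per cell cannot be told apart.

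The rule capped the R5 counts of every member, so the next values describe what was left under that cap. When the members were cut into 3 groups of 91 genes by mean V5 CPM, the highest group had a median of 97.0 CPM at V5 and 211 R5 counts, the middle group 16.5 CPM and 135 R5 counts, and the lowest group 4.83 CPM and 221 R5 counts. The groups held 35, 41 and 35 members with 0 counts in every R5 library. CPM is not divided by gene length, which the tables do not give, so these figures describe read support and do not rank genes by transcript number.

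**Figure D1:**
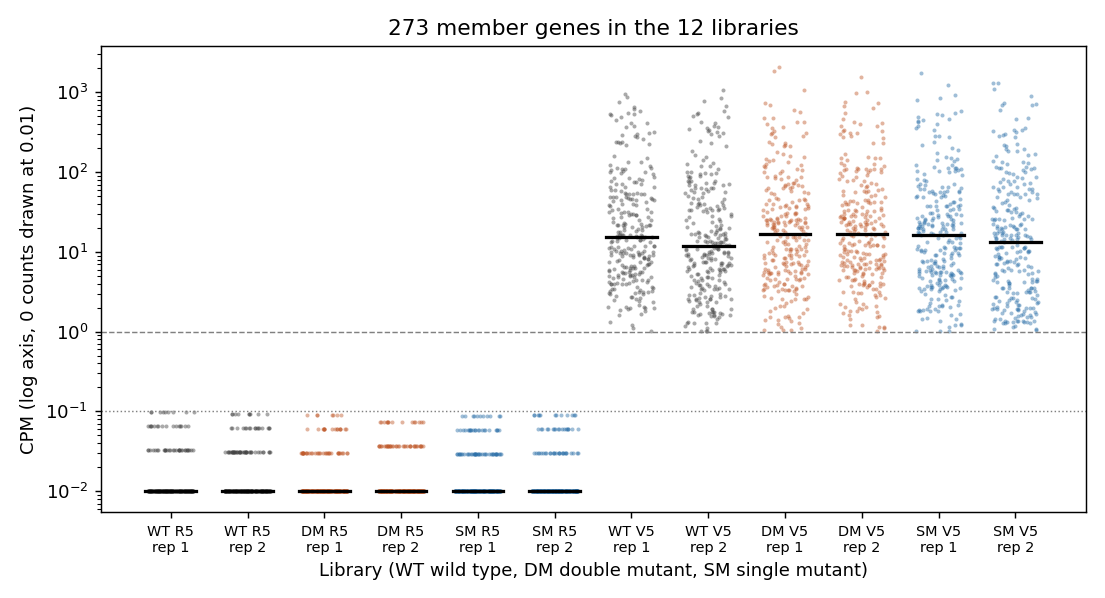
Each point is 1 of the 273 member genes in 1 of the 12 libraries (WT wild type, DM double mutant, SM single mutant), in CPM on a log axis with 0 counts drawn at 0.01, and black bars are medians. The lines at 0.1 and 1 CPM are the bounds that chose the members, and the V5 medians lie between 11.9 and 16.9 CPM.

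At V5 the members made up a small and fairly even share of each library. They took 1.89% and 1.70% of all counts in Thorne, 2.05% and 1.96% in the double and 1.98% and 1.94% in the single mutant. The median member had 15.4 and 11.9 CPM in Thorne, 16.9 and 16.7 CPM in the double and 16.4 and 13.3 CPM in the single mutant. These figures hide how unevenly the 26 genes above the upper bound behaved. Those genes took 28.0% and 34.9% of counts in Thorne, 20.1% and 20.8% in the double and 20.8% and 2.83% in the single mutant, where the last value belongs to the outlying library.

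The read support of single members spanned a wide range. Averaged over the 6 V5 libraries, members ran from 1.42 to 978 CPM, with quartiles of 5.98, 16.5 and 52.9 CPM. A total of 52 members averaged under 5 CPM, 42 averaged over 100 CPM and 9 of these over 500 CPM. The 2 members with the most reads, Glyma.08G341000 and Glyma.06G022600, held 10.1% of the summed CPM of the set.

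Glyma.08G341000 stood at 611 and 345 CPM in Thorne, at 2075 and 999 CPM in the double and 1761 and 73.6 CPM in the single mutant. The single mutant replicates thus lay on both sides of wild type, while both double mutant libraries lay above it. Its R5 counts were 0 in all 6 libraries, and its pooled V5 level was at least 62125-fold higher than the limit that 0 counts set over the pooled R5 libraries (3 counts). Glyma.06G022600 stood at 590 and 559 CPM in Thorne, at 1861 and 1573 CPM in the double and 1227 and 1.42 CPM in the single mutant. Again 1 library, the single mutant replicate 2, lay far from the other 5, and the gene had 1 count in all R5 libraries.

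Members near the bounds show how much the thresholds matter. Just inside the V5 bound, Glyma.10G244700 had a lowest V5 value of 1.01 CPM, and just outside it Glyma.12G076600 had 0.949 CPM. The highest R5 value was 0.0972 CPM among members and 0.111 CPM in the nearest genes left out. The member with the highest wild-type V5 mean was Glyma.10G246500 at 919 CPM, and the nearest gene above the upper bound was Glyma.16G210000 at 1080 CPM. In 71 members the lowest V5 library was under 2 CPM.

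The members varied more among V5 libraries than other genes with V5 reads did. Without the single mutant replicate 2, the ratio of the highest to the lowest V5 library had a median of 2.13 among members and 1.51 among the 25727 reference genes. The ratio stayed under 2-fold in 122 members (44.7%) against 85.6% of the reference, and exceeded 4-fold in 37 members (13.6%) against 0.948%. The coefficient of variation over these 5 libraries had a median of 28.8% among members and 16.5% in the reference. With all 6 libraries the medians were 45.2% and 31.7%. The 26 genes above the upper bound, which met the same V5 and R5 bounds, showed part of this spread. Without the outlying library their median ratio was 1.90, with 53.8% under 2-fold and 3.85% over 4-fold. Their median coefficient of variation was 24.8% over these 5 libraries and 52.9% over all 6, so a wide spread was not particular to the members. These are descriptions of the set, and no test of the difference was made.

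Part of this spread lay within genotypes. After TMM scaling (trimmed mean of M values, which sets each library's total so that most genes do not change), the wild-type replicates differed by more than 2-fold in 45 members (16.5%) against 1.36% of the reference. The double mutant replicates did so in 10 members (3.66%) against 0.490%. The single mutant replicates did so in 172 members (63.0%) against 38.9%. The members were therefore least alike in the single mutant pair and most alike in the double mutant pair.

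Some members were nonetheless steady in every V5 library. Glyma.04G186000 stood at 456 and 416 CPM in Thorne, at 421 and 410 CPM in the double and 468 and 471 CPM in the single mutant, a coefficient of variation of 6.33%. Glyma.09G037800 had 107 and 88.7 CPM, 106 and 99.2 CPM, and 100.4 and 95.2 CPM in the same order, a coefficient of variation of 6.71%. In both genes the outlying library lay within or next to the range of the other V5 libraries. Glyma.09G037800 also had 9 counts over the R5 libraries.

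In the single mutant V5 replicate 2 the members moved in both directions. Against the mean of the other 5 V5 libraries, 55 members (20.1%) were more than 4-fold lower and 38 (13.9%) more than 4-fold higher, compared with 3.63% and 8.70% of the reference genes. Only 108 members (39.6%) were within 2-fold, compared with 56.1% of the reference. The library was below all 5 others in 107 members (39.2%) and above all 5 in 95 (34.8%), compared with 22.3% and 59.2% of the reference. The median ratio was 0.862 among members, 1.43 in the reference and 0.121 among the 26 genes above the upper bound. With TMM scaling 72 members (26.4%) were more than 4-fold lower and 20 (7.33%) more than 4-fold higher, compared with 6.61% and 4.47% of the reference. The median ratio was then 0.613 among members and 1.01 in the reference.

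The extremes were large in both directions. Glyma.06G275300 stood at 952 and 676 CPM in Thorne, at 1074 and 969 CPM in the double and 862 and 1.09 CPM in the single mutant, so that the outlying library was 831-fold below the mean of the other 5. For Glyma.06G022600, described above, the factor was 816. In the other direction, Glyma.13G291800 stood at 29.5 and 55.4 CPM in Thorne, at 18.7 and 25.2 CPM in the double and 15.1 and 1322 CPM in the single mutant, a ratio of 45.9. Glyma.03G189200 had 3.04 and 7.55 CPM, 1.11 and 2.35 CPM, and 1.83 and 62.3 CPM in the same order, a ratio of 19.6. In these 4 genes the other single mutant library lay within or just below the range of the other genotypes.

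**Figure D2:**
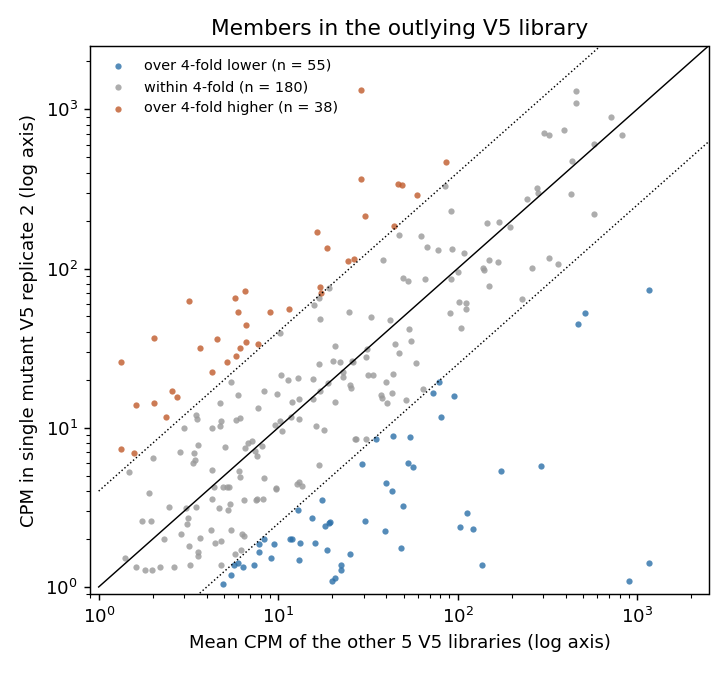
Each point is a member gene, with the mean CPM of the other 5 V5 libraries on the x axis and the CPM in the single mutant V5 replicate 2 on the y axis, both log axes. The solid line marks equal values and the dotted lines 4-fold differences, with 55 members below and 38 above them.

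Across members, log2 ratios between 2 V5 libraries had a standard deviation of 2.17 to 2.29 in the pairs that include this library and 0.45 to 1.22 in the pairs that do not. In the reference genes the ranges were 1.30 to 1.34 and 0.25 to 0.46. The rule itself also depended on the library: without it, 375 genes would qualify, 102 of them new. Whether the library differs by its tissue, its stage or its handling was not tested.

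In these samples the effect of an edit cannot be told apart from other differences between the lines or the plants sampled. The genotype comparisons at V5 ask whether these genes differed between the edited lines and Thorne, or between the edited lines. They were not used to choose the members, apart from the lower bound on every V5 library and the upper bound, which looked at the Thorne V5 libraries alone. A gene high in Thorne was thus left out where one equally high in a mutant was kept, so the counts of members lower and higher than Thorne are not free of the rule. All 273 members passed the filter on low counts. Deposited counts of the 6 V5 libraries were fitted together with edgeR's quasi-likelihood test, and p-values were adjusted by the Benjamini-Hochberg method over the 33599 genes tested. At an adjusted p under 0.05, edgeR called 0 members in each of the 3 comparisons, against a background of 0% of all genes in each. The comparisons share libraries, so their values are set side by side and not counted as agreeing.

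For the double mutant against wild type, the members leaned to lower values by a small amount. The median log2 fold change was -0.16 among members, -0.01 in the reference and 0.00 over all genes tested. The difference exceeded 2-fold in 49 members (17.9%) and in 1.48% of the reference. At an unadjusted p under 0.05 edgeR gave 2 members higher and 23 lower, against backgrounds of 0.735% and 0.804% of all genes. DESeq2 on the same 6 libraries called 0 members higher and 1 lower, against backgrounds of 0.0162% in each direction. After TMM scaling both double mutant libraries lay above both wild-type libraries in 63 members and below them in 120, where the backgrounds were 25.1% and 24.6%. With plain CPM the split turned to 103 above and 72 below, against backgrounds of 60.1% and 5.93%, and the member median became 0.16 where the median of all genes was 0.31. The balance of directions thus depends on the scaling, while the member median lay below that of all genes under both.

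The member called by DESeq2 was Glyma.02G076600. This gene stood at 228 and 785 CPM in Thorne, at 19.2 and 42.5 CPM in the double and 62.2 and 64.6 CPM in the single mutant. All 4 mutant libraries lay below both wild-type libraries, and the wild-type libraries themselves differed more than 3-fold. The log2 fold change of the double mutant was -4.42 (SE 0.88), with adjusted p-values of 1 (edgeR) and 0.000109 (DESeq2). The DESeq2 call ended without the wild-type replicate 2, where the log2 fold change was -3.08 with an adjusted p of 0.481, and without the double mutant replicate 1, where it was -3.97 with an adjusted p of 0.686.

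Glyma.05G004300 stood at 239 and 300.1 CPM in Thorne, at 66.8 and 123 CPM in the double and 105 and 110.0 CPM in the single mutant. The mutant libraries again lay below wild type without overlap. The log2 fold change of the double mutant was -1.84 (SE 0.45), with adjusted p-values of 1 (edgeR) and 0.189 (DESeq2). For the single mutant against Thorne, DESeq2 on all 6 libraries called the gene lower at an adjusted p of 0.0478, where edgeR called 0 members.

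Among members with higher values in the double mutant, Glyma.03G035800 stood at 13.1 and 2.39 CPM in Thorne, at 71.2 and 51.0 CPM in the double and 16.2 and 27.9 CPM in the single mutant. The double mutant stood above both other genotypes, and the wild-type libraries differed more than 5-fold. Against Thorne its log2 fold change was 2.73 (SE 0.75), with adjusted p-values of 1 (edgeR) and 0.248 (DESeq2). Glyma.17G197300 stood at 14.1 and 16.7 CPM in Thorne, at 31.2 and 78.0 CPM in the double and 80.4 and 185 CPM in the single mutant. Its libraries were ordered by genotype with no overlap, and the log2 fold change of the double mutant was 1.50 (SE 0.54), with an adjusted p of 1 by edgeR and also by DESeq2.

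The single mutant libraries entered this comparison only through the scaling and the shared estimate of spread, yet the number of DESeq2 calls depended on them. Without the outlying library, in an alternative added after seeing the data, DESeq2 called 7 members higher and 30 lower in the double mutant than in wild type, against backgrounds of 0.758% and 0.953% of all genes. In the reference genes the shares were 0.696% and 0.898%, and among members 2.56% and 11.0%. The log2 fold changes of the 30 lower members ran from -4.42 to -0.53 with a median of -1.20, and those of the 7 higher members from 0.72 to 1.28. In 5 of the 30 lower members the wild-type replicates differed by more than 2-fold. In the same setting edgeR still called 0 members at an adjusted p under 0.05, with 47 higher and 91 lower at an unadjusted p under 0.05, against backgrounds of 8.15% and 8.20%. For Glyma.02G076600 the DESeq2 adjusted p was then 0.00263, and for Glyma.05G004300 it was 0.0181. When replicate 1 of the single mutant was dropped and replicate 2 kept, DESeq2 called 44 members (16.1%), against 1.96% of all genes.

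For the single mutant against wild type, the median log2 fold change was -0.27 among members, 0.04 in the reference and 0.03 over all genes tested. The difference exceeded 2-fold in 94 members (34.4%) and in 11.4% of the reference, and without the outlying library in 54 members (19.8%) and 2.62%. At an unadjusted p under 0.05 edgeR gave 8 members higher and 30 lower, against backgrounds of 3.68% and 2.34%. DESeq2 called 1 member higher and 6 lower, against backgrounds of 0.597% and 0.123%. After TMM scaling the groups did not overlap in 32 members with higher and 84 with lower values in the single mutant, against backgrounds of 16.9% and 18.2%. These became 85 and 122 members without the outlying library, against 36.4% and 37.4%. With plain CPM over all 6 libraries the groups did not overlap in 61 members with higher and 55 with lower values, against 36.5% and 7.44%. Without the outlying library the plain CPM counts were 111 and 93, against 54.9% and 19.5%.

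Glyma.04G024400 separated the single mutant from both other genotypes. This gene stood at 13.3 and 16.0 CPM in Thorne, at 11.9 and 14.6 CPM in the double and 2.69 and 1.99 CPM in the single mutant. In plain CPM wild type and the double mutant overlapped, and both single mutant libraries, the outlying one included, lay below all others. TMM scaling divides by 0.908 and 0.778 in Thorne and by 1.04 and 1.05 in the double mutant. On that scale the double mutant lay below wild type without overlap, and the single mutant still lay below both. Against Thorne its log2 fold change was -3.04 (SE 0.41), with adjusted p-values of 0.649 (edgeR) and 1.96e-05 (DESeq2), and without the outlying library the DESeq2 adjusted p was 5.05e-09. Without the wild-type replicate 2 the call ended, at an adjusted p of 0.203.

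Glyma.07G263600 stood at 8.28 and 9.84 CPM in Thorne, at 4.73 and 7.04 CPM in the double and 2.02 and 1.33 CPM in the single mutant. The double mutant lay between the other genotypes, with no overlap. The single mutant's log2 fold change against Thorne was -2.82 (SE 0.48), with adjusted p-values of 0.649 (edgeR) and 0.00185 (DESeq2). The DESeq2 call ended without the wild-type replicate 1 or 2, at adjusted p-values of 0.193 and 0.562.

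On the higher side, Glyma.17G197300 was the 1 member called by DESeq2. It had a log2 fold change of 2.59 (SE 0.56), with adjusted p-values of 0.649 (edgeR) and 0.00737 (DESeq2). Without the outlying library the log2 fold change was 2.18 and the DESeq2 adjusted p 0.193, and without the wild-type replicate 1 or 2 the adjusted p was 0.509 and 0.213. Glyma.16G189900 stood at 16.1 and 13.2 CPM in Thorne, at 16.9 and 13.0 CPM in the double and 34.9 and 135 CPM in the single mutant. In plain CPM only the single mutant stood apart, with replicates almost 4-fold from each other. After TMM scaling the double mutant also lay below wild type without overlap, and the gap between the single mutant replicates was smaller. Its log2 fold change was 1.99 (SE 0.53), with adjusted p-values of 0.649 (edgeR) and 0.0746 (DESeq2), and 1.07 with a DESeq2 adjusted p of 0.0157 without the outlying library.

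Without the outlying library the member median against wild type was -0.10, and DESeq2 called 15 members higher and 9 lower, against backgrounds of 0.752% and 0.698% of all genes. The single mutant was then 1 library, assumed to vary like the other groups. The log2 fold changes of the called members ran from 0.82 to 1.50 on the higher side and from -3.53 to -1.06 on the lower side. At an unadjusted p under 0.05 edgeR gave 38 higher and 68 lower, against backgrounds of 8.22% and 7.97%, and 0 members passed after adjustment. Leaving out the single mutant replicate 1 instead, so that the outlying library alone stood for the genotype, edgeR called 193 members (70.7%), against 60% of all genes, and the member median was -0.84.

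**Figure D3:**
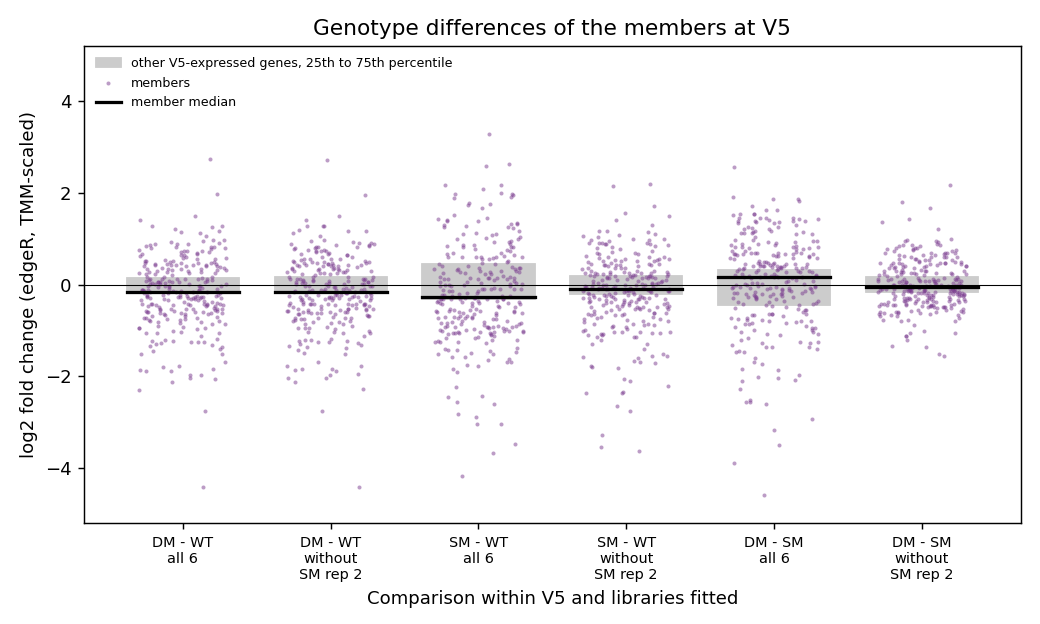
Each point is the log2 fold change of a member gene in a comparison between genotypes at V5 (DM double mutant, SM single mutant, WT wild type), fitted with all 6 V5 libraries or without the single mutant replicate 2, and black bars are member medians. Grey boxes span the 25th to 75th percentile of the other genes above 1 CPM in all V5 libraries, and the member medians lie between -0.27 and 0.17.

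The double mutant was also set against the single mutant. The labels do not say whether both lines carry the same edit of the chromosome 20 gene. What the paralog's edit added therefore cannot be told apart from other differences between the lines. The median log2 fold change was 0.17 among members and -0.04 in the reference, and without the outlying library it was -0.060 among members. At an unadjusted p under 0.05 edgeR gave 7 members higher and 11 lower in the double mutant, against backgrounds of 1.23% and 2.79%. DESeq2 called 1 higher and 2 lower, against backgrounds of 0.00894% and 0.516%. Without the outlying library DESeq2 called 1 higher and 3 lower, against backgrounds of 0.0432% and 0.0865%. In that setting edgeR called 0 after adjustment and gave 20 higher and 38 lower at an unadjusted p under 0.05, against backgrounds of 4.65% and 4.50%. Non-overlapping members after TMM scaling numbered 74 higher and 43 lower, against backgrounds of 19.5% and 18.1%. The balance turned without the outlying library, to 101 higher and 113 lower, against 37.6% and 37.1%. With plain CPM they numbered 75 and 44 over all 6 libraries, against 21.5% and 13.3%, and 117 and 88 without the outlying library, against 54.1% and 22.6%.

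Glyma.04G024400, with the values given above, was the member called higher by DESeq2 both times. Its log2 fold change between the double and the single mutant was 2.57 (SE 0.40), with adjusted p-values of 0.669 (edgeR) and 0.00123 (DESeq2), and DESeq2 left its adjusted p undefined when either double mutant library was left out. Glyma.07G263600 followed with 1.87 (SE 0.47), adjusted p-values of 0.669 by edgeR and 0.133 by DESeq2. On the lower side, Glyma.16G189900 had a log2 fold change of -2.26 (SE 0.53), with adjusted p-values of 0.669 (edgeR) and 0.0333 (DESeq2). Leaving out the outlying library gave -1.34 with a DESeq2 adjusted p of 0.00364, and this call ended when any 1 of the wild-type or double mutant libraries was left out, with DESeq2 adjusted p-values of 0.130 to 0.981. Glyma.09G036500 stood at 2.01 and 1.95 CPM in Thorne, at 1.25 and 1.10 CPM in the double and 3.22 and 3.89 CPM in the single mutant. Its 3 genotypes did not overlap, with wild type in the middle, and the log2 fold change between the mutants was -1.47 (SE 0.33, adjusted p-values of 0.669 by edgeR and 0.241 by DESeq2).

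**Figure D4:**
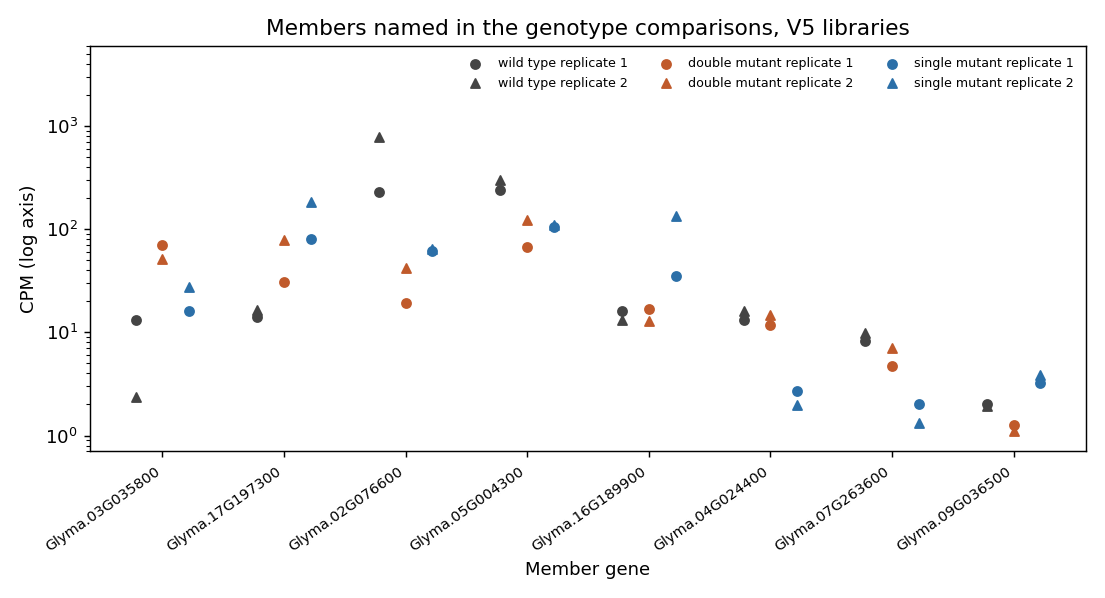
CPM on a log axis of the 8 members named in the genotype comparisons, with circles for replicate 1 and triangles for replicate 2 of each genotype at V5. The single mutant points of Glyma.04G024400 are 2.69 and 1.99 CPM, below 11.9 to 16.0 CPM elsewhere, and the Thorne points of Glyma.02G076600 are 228 and 785 CPM, above 19.2 to 64.6 CPM in the mutants.

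When the 3 mutant libraries other than the outlying one were set together against wild type on the TMM scale, all 3 lay above both wild-type libraries in 42 members (15.4%) and below them in 96 (35.2%). The shares were 16.6% and 18.2% in the reference. With plain CPM the balance turned, to 71 members above (26.0%) and 57 below (20.9%), against 48.6% and 3.01% of the reference. Members were also split by their level in the outlying library. The double mutant's median log2 fold change against wild type was 0.03 in the 55 members more than 4-fold lower in that library. It was -0.15 in the 180 members within 4-fold and -0.28 in the 38 members more than 4-fold higher. The 25th to 75th percentiles overlapped widely, at -0.54 to 0.48, -0.59 to 0.38 and -0.84 to 0.23 in that order. The split itself used the wild-type and double mutant libraries, and the reference genes were not split in this way.

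The IDs carry a chromosome number, which places the members without a genome. Chromosome 13 held 30 members, 11.0% of the set, and 6.97% of all genes above 1 CPM at V5. Chromosome 2 held 21 (7.69% of the set and 5.68% of those genes), chromosome 8 held 20 (7.33% and 7.17%) and chromosome 14 held 18 (6.59% and 3.85%). Chromosome 1 held 4 (1.47% and 4.28%), and 4 members were on unplaced sequences (1.47% and 0.492%). The chromosomes of the edited loci, 20 and 10, held 10 members (3.66% and 4.51%) and 11 members (4.03% and 5.53%). Among the members were 11 pairs of directly neighbouring IDs in the table, together 22 members (8.06%). In 6 of the 11 pairs the outlying library lay on the same side of the mean of the other 5 V5 libraries for both genes. Neither figure was computed for the reference genes, so whether members neighbour each other or move together more than other genes was not tested. Of the 517 other genes next to a member, 43.5% exceeded 1 CPM in all V5 libraries and 46.0% in all R5 libraries, where the figures for all IDs were 46.4% and 52.9%. Soybean keeps many near-identical gene copies, and the counting of reads shared by copies or by overlapping and antisense genes is not given in the sources used here, so the values of neighbouring or duplicated members are uncertain.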

How the data were processed

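RNA from material labelled seed was sequenced in 12 libraries. The authors deposited 1 table of whole-number read counts per gene ID and library. Bowtie, HISAT2 and HTSeq were used, per the submitters' processing notes. No version, genome build, annotation, strand setting or rule for ambiguous reads is given in the sources used here, so reads of paralogs may be split or dropped.

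From the deposited counts, CPM was computed with library totals, and groups followed the labels. The members were found by fixed bounds on CPM. The members, the lists and the alternatives were chosen with earlier results of these data known. Genotypes were compared within V5 on all 6 V5 libraries with edgeR 4.0.16 in R 4.3.3 (quasi-likelihood test, TMM, filterByExpr with minimum count 10 and minimum total 15), which leaves 3 residual degrees of freedom. p-values were adjusted by the Benjamini-Hochberg method over all genes tested, at 0.05. The code was tested on simulated data. Alternatives were DESeq2 1.42.0, other size factors, no filter, a replicate block, other sets of libraries and other bounds. DESeq2 fits that leave out a library were added after seeing the data. DESeq2 leaves some adjusted p undefined, and these were not counted.

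IDs are named by rule: the most reads at V5, the extreme ratios in the outlying library and the smallest and largest coefficients of variation. The nearest values to each bound are also named. Per comparison, members whose groups do not overlap in plain CPM are named by the smallest edgeR p, at most 2 per direction. Glyma.02G088800 was named after its values were seen. Product lists and promoter motifs could not be used, since no ID matched the reference table (assembly Glycine_max_v4.0).

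Samples with the same replicate number did not deviate together: the correlations of their deviations over 33599 genes were 0.0516, 0.0219 and 0.0336. Replicates differed beyond sampling noise in every group (chi-square per degree of freedom 8.48 to 370.2), so none was counted as a duplicate.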

Additional observations from a re-analysis of the deposited data

How the results depend on the processing

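Under edgeR with other size factors, no filter, the replicate block, all 12 libraries or only the 4 compared, 0 members were called in each comparison. DESeq2 called 1 member for the double mutant against wild type, 7 for the single mutant and 3 between the mutants. Over all genes with an adjusted p it called 10 of 30935, 229 of 31805 and 176 of 33543 in the same order. With 1 V5 library left out, edgeR called 0, 0 to 193 and 0 to 192 members in that order, and DESeq2 0 to 44, 0 to 169 and 0 to 177, the highest counts all without the single mutant replicate 1, where edgeR called 60% and 61.8% of all genes in the comparisons with the single mutant and DESeq2 1.96%, 43.7% and 43.8%. The outlying library then stands alone for its genotype. Without the outlying library, DESeq2 called 37, 24 and 4, and without either double mutant library it called 5 for the single mutant. The cause of these differences was not tested. With plain library totals the member medians were 0.16 for the double and 0.15 for the single mutant against wild type, where the median of all genes was 0.31 and 0.47. Leaving out libraries, the member medians ranged from -0.17 to -0.12, from -0.84 to -0.10 and from -0.060 to 0.67. With the replicate block, added after seeing the data for the medians, they were -0.14, -0.36 and 0.27. The replicate numbers did not pair the samples.

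Of 216 alternatives over the 12 pairs of a named member and a comparison, 174 gave the same direction and side of the threshold. Another 42 passed the threshold where the reported fit did not, and 0 reversed. The reported fit called none of these pairs, so the same side means not called. The pairs were picked for groups that do not overlap in plain CPM and a small edgeR p. A reversal was therefore unlikely from the start, and the tally is no test of their direction. The set held 371 genes with a V5 bound of 0.5 CPM, 202 with 2 CPM, 183 and 372 with R5 bounds of 0.05 and 0.2 CPM, 264 with an upper bound of 500 CPM and 299 with none. It held 111 with 0 counts at R5, and 299 on the TMM scale, of which 267 were shared. Leaving out 1 library gave 274 to 375 genes.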
